A study of Mus musculus with 20 samples.

Results

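The 5 genes described here form the entry to corticosteroid signalling: the receptors Nr3c1 and Nr3c2, the steroid-activating enzyme Hsd11b1, and the receptor chaperone partners Fkbp4 and Ptges3. They were taken by symbol, 1 Ensembl identifier each, from the 54532 genes in the expression table. The choice was made with earlier results of these data known. RNA of whole lung from wild-type mice was sequenced in 20 libraries, 5 in each of 4 groups. The labels call these groups control, model (of asthma, per the title), SMD and prednisone. SMD stands for Shegan-Mahuang Decoction, a herbal formula of traditional Chinese medicine, and prednisone is a synthetic glucocorticoid. The design text puts 15 mice in each group. Strain, sex, age, how the model was made, doses, times, and whether the SMD and prednisone mice carried the model are not stated by the labels. The titles number 5 libraries in each group, but the treatment label of prednisone replicate 5 repeats that of prednisone replicate 1. No label says that each library is 1 animal, so p-values measure the spread between these samples, which may be technical.

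Glucocorticoids act through the glucocorticoid receptor, a transcription factor encoded by Nr3c1, which waits in the cytoplasm on the chaperone HSP90. FKBP52, the product of Fkbp4, and p23, the product of Ptges3, sit on HSP90 and keep the receptor able to bind hormone, whereas FKBP51, from Fkbp5, lowers hormone binding and is itself induced by the active receptor. The mineralocorticoid receptor, from Nr3c2, is a close relative that binds the same natural hormones as well as aldosterone. The enzyme 11-beta-hydroxysteroid dehydrogenase type 1, from Hsd11b1, regenerates active glucocorticoid from its inert keto form inside cells and turns prednisone into the active prednisolone. In lung, the receptor is needed for maturation before birth and is the target of the steroids used against asthma.

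Levels are FPKM, mapped fragments scaled to gene length and to the total of the library, which allow comparison between genes per length. The sum of FPKM lay between 377640 and 446710 in 19 libraries and was 522360 in control replicate 1. There, the small RNAs 7SL and 7SK made up 7.50% of that sum, and at most 0.870% elsewhere. Read depth is unknown, so precision rests on the spread between libraries alone. The 5 lung markers Sftpc, Sftpb, Sftpa1, Scgb1a1 and Ager gave a score, the mean log2(FPKM + 1), of 11.39 to 11.80 in every library.

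Differences were tested with limma on log2(FPKM + 1) of 15106 genes that reached 1 FPKM in at least 5 libraries, and a gene was called at a Benjamini-Hochberg adjusted p under 0.05 over all of them. All 5 genes passed this filter. Nr3c2 did so with 8 libraries at 1 FPKM or more, 4 of them from the SMD group. Without those 4 it would have missed the 5 needed. None of the 5 genes was called in any of the 6 comparisons (0 of 5 in each). Of all genes tested, limma called 0.192% in model with control, 3.57% in prednisone with control and 1.05% in SMD with control. It called 8.04% in prednisone with model, 2.15% in SMD with model and 4.59% in SMD with prednisone. At an unadjusted p under 0.05, 1 of the 5 was higher in model than control (13% of all genes were), 2 were lower in SMD than model (15.7%), and 0 differed between prednisone and model (23.6%). By the same measure 3 were lower in SMD than prednisone (9.78%), 1 was lower in SMD than control (8.06%), and 2 were higher in prednisone than control (10.2%).

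**Figure D1:**
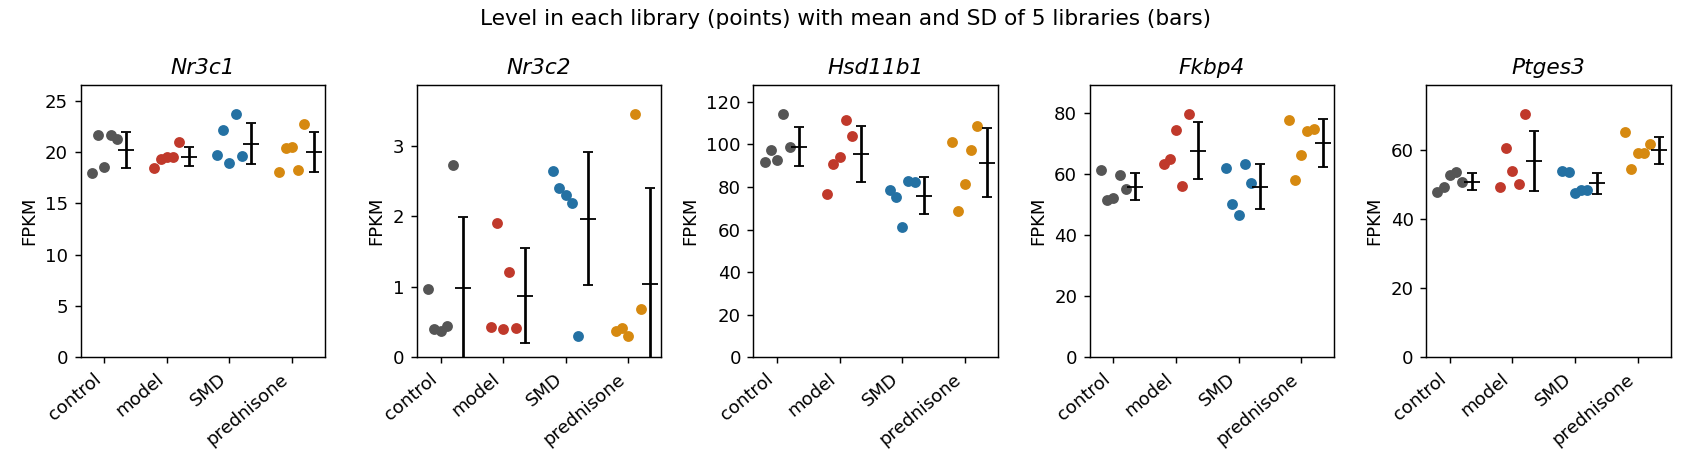
Level of each gene in FPKM (vertical axes, starting at 0) in every library, by group; points are libraries in replicate order, and the bar beside each group is the mean with its SD over 5 libraries, cut off at 0 where the SD reaches below it. Nr3c1 lies between 17.9 and 23.7 FPKM throughout, Nr3c2 spans 0.301 to 3.45 FPKM, and the SMD libraries hold the lowest Hsd11b1 value, 61.3 FPKM.

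Nr3c1, identifier ENSMUSG00000024431, lies on the minus strand of chromosome 18 from 39410545 to 39519421 in GRCm38. Its level in control replicates 1 to 5 was 17.9, 21.6, 18.6, 21.6 and 21.2 FPKM. In the model replicates it was 18.5, 19.3, 19.5, 19.5 and 21.0 FPKM. The 2 groups overlapped over nearly their whole range. SMD replicates held 19.7, 22.1, 18.9, 23.7 and 19.6 FPKM, and prednisone replicates 18.05, 20.4, 20.5, 18.3 and 22.7 FPKM. Again the groups overlapped, with the highest value in SMD replicate 4 and the lowest in control replicate 1, a span of 1.32 times.

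By mean, Nr3c1 stood in the order SMD (20.8 ± 2.02 FPKM, SD, n = 5), control (20.2 ± 1.79), prednisone (19.99 ± 1.92) and model (19.5 ± 0.904), and no neighbours in that order differed beyond the SD. The log2 fold change was -0.04 ± 0.0738 (SE) for model with control (limma, adjusted p = 0.826), 0.08 for SMD with model (adjusted p = 0.589) and 0.03 for prednisone with model (adjusted p = 0.865). For SMD with prednisone it was 0.05 (limma, adjusted p = 0.742). Every one of the 6 intervals held 0, and together their 95% bounds ran from -0.20 to 0.24, so larger shifts of the group mean lie outside the intervals of these data. Its spread within groups was near the middle for its level: of the 500 tested genes nearest to it in mean level, 289 varied more between libraries of a group. In bulk tissue, fewer cells of a type and less RNA per cell cannot be told apart, for this gene and for those below.

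Nr3c2, identifier ENSMUSG00000031618, on the plus strand of chromosome 8 from 76899442 to 77245012, was far lower and far less even. Control replicates 1 to 5 held 0.974, 0.408, 0.372, 0.450 and 2.74 FPKM. Model replicates held 0.428, 1.91, 0.401, 1.21 and 0.413 FPKM. In both groups most libraries lay under 0.5 FPKM, and single libraries reached several times that level. SMD replicates held 2.65, 2.41, 2.30, 2.18 and 0.301 FPKM, and prednisone replicates 0.377, 0.416, 0.305, 3.45 and 0.686 FPKM. In the SMD group 4 libraries were high, but SMD replicate 5 was the lowest of all 20 and prednisone replicate 4 the highest, so every pair of groups overlapped.

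Above 1.5 FPKM there were 4 of 5 SMD libraries and 1 of 5 in each other group. That cutoff lies in the widest gap, by ratio, of these same values (1.21 to 1.91 FPKM), so the counts are no independent support. The gene also passed the filter only with the SMD libraries included. Mean levels were 1.97 ± 0.947 FPKM in SMD (SD, n = 5), 1.05 ± 1.35 in prednisone, 0.988 ± 1.01 in control and 0.872 ± 0.674 in model, and neighbours in that order lay within their SD. For SMD with model the log2 fold change was 0.64 ± 0.364 (SE; 95% interval -0.12 to 1.41; limma, adjusted p = 0.353). For SMD with prednisone it was 0.63 (limma, adjusted p = 0.361) and for model with control -0.04 (adjusted p = 0.973). Because the gene is low, the pseudocount of 1 shrinks these values: with 0.1 in its place, SMD with model became 1.08 (adjusted p = 0.398). Of the 500 genes nearest in mean level, 10 varied more within groups than Nr3c2. The highest and lowest libraries differed 11.5 times, against 1.32 times for Nr3c1, and what separates the high from the low libraries was not tested.

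Per length, the glucocorticoid receptor transcript exceeded the mineralocorticoid receptor transcript in all 20 libraries. The median ratio of Nr3c1 to Nr3c2 was 48.0 in control, 43.2 in model, 9.19 in SMD and 47.9 in prednisone, with 5.29 as the lowest of any library and 67.2 as the highest, both in the prednisone group. Over the 20 libraries the receptor transcripts had a Pearson r of 0.07 with each other, given as a description without a test.

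Hsd11b1, identifier ENSMUSG00000016194, on the minus strand of chromosome 1 from 193221634 to 193264075, was the most abundant of the 5 genes, at rank 489 by mean among the genes tested. Control replicates 1 to 5 held 91.6, 97.4, 92.8, 114 and 98.6 FPKM. SMD replicates held 78.5, 75.1, 61.3, 82.6 and 82.3 FPKM. All 5 SMD libraries lay under the lowest control library, and Hsd11b1 was the 1 of the 5 genes whose SMD values lay wholly below control (2.58% of all genes tested did). Model replicates held 76.8, 91.0, 94.2, 111 and 104 FPKM, and prednisone replicates 101, 68.6, 81.5, 97.3 and 108 FPKM. Both groups spread across the control range and reached down into the SMD range through model replicate 1 and prednisone replicates 2 and 3.

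In mean level the order was control (98.9 ± 9.05 FPKM, SD, n = 5), model (95.4 ± 13.2), prednisone (91.4 ± 16.1) and SMD (76.0 ± 8.75), and the first 3 lay within an SD of each other. The log2 fold change of SMD with control was -0.38 ± 0.118 (SE; 95% interval -0.63 to -0.13), which did not pass after adjustment (limma, adjusted p = 0.122). For SMD with model it was -0.32 (95% interval -0.57 to -0.07; limma, adjusted p = 0.144) and for SMD with prednisone -0.25 (95% interval -0.50 to -0.0047; adjusted p = 0.245). Model with control gave -0.06 (limma, adjusted p = 0.855) and prednisone with model -0.07 (adjusted p = 0.778). These 3 SMD comparisons share the SMD libraries.

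Fat markers, like Hsd11b1, were lowest in SMD. The 2 differed in prednisone, where the mean fat score was 1.53, against 1.09 in SMD and 3.10 in control. Hsd11b1 was at -0.13 on the log2 scale for prednisone with control (limma, adjusted p = 0.576). The 6 fat markers are Adipoq, Plin1, Cidec, Lep, Retn and Cfd, and their score ranged from 1.67 to 4.62 in control, 1.13 to 3.90 in model, 0.74 to 1.40 in SMD and 0.95 to 2.15 in prednisone. Lep, the leptin gene, was listed at 0 in SMD replicates 1 and 5 and prednisone replicate 3, and Adipoq, the adiponectin gene, was 0.934 ± 0.475 FPKM in SMD against 18.7 ± 18.1 in control. Over the 20 libraries Hsd11b1 and the fat score had a Pearson r of 0.51 (Spearman rho 0.53), and 0.22 once group means were removed. With the fat score as a covariate, Hsd11b1 was at -0.26 for SMD with model (limma, adjusted p = 0.482) and -0.29 for SMD with control (adjusted p = 0.783). The score of 5 cardiac muscle markers, 5.17 in control and 4.22 in SMD on average, had an r of 0.49 with Hsd11b1, and 0.20 once group means were removed. The 8 fibroblast markers had a median log2 fold change of -0.31 in SMD with model, with 0 called by limma. Before adjustment (p under 0.05), 4 of the 8 were lower there, as were 15.7% of all genes. In SMD with control the median was -0.24, with 0 called. Before adjustment 3 were lower (8.06% of all genes were) and 1 was higher (979 of 15106 genes were). Their score had an r of 0.37 with Hsd11b1 (0.22 without group means). With group means removed, r was -0.52 for the score of 5 T cell markers and 0.44 for that of 6 endothelial markers. The part of these cell types in the difference was not tested.

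Hsd11b1 works in the endoplasmic reticulum with H6pd, hexose-6-phosphate dehydrogenase, which supplies its cofactor. H6pd was at 25.4 ± 2.75 FPKM in control (SD, n = 5), 26.9 ± 2.34 in model, 23.3 ± 2.48 in SMD and 26.3 ± 1.27 in prednisone. It was not called in any comparison, with a log2 fold change of -0.20 ± 0.0778 (SE) for SMD with model (limma, adjusted p = 0.175). The ratio of Hsd11b1 to H6pd averaged 3.90 in control, 3.56 in model, 3.27 in SMD and 3.46 in prednisone. Over the 20 libraries the 2 genes had a Pearson r of 0.64, and 0.54 with group means removed.

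Hsd11b2, the opposing enzyme that inactivates glucocorticoids, was below the filter and not tested, with group means of 0.464 to 0.585 FPKM. Per length, the activating transcript exceeded it by 268 times in control, 175 times in model, 192 times in SMD and 166 times in prednisone on average. The widest ranges were 91.4 to 372 in control and 102 to 320 in SMD. Of 13 genes for synthesis, carriage, conversion and export of glucocorticoids, 5 could be tested and 0 were called by limma in any of the 6 comparisons. At an unadjusted p under 0.05 there were 0 for model with control and for SMD with control, and 1 of 5 lower in each of the other 4. The share of all genes lower at that p was 15.7% in SMD with model, 18.5% in prednisone with model, 9.78% in SMD with prednisone and 10.5% in prednisone with control, so 1 of 5 is near the background. Under both other scalings tried, median-of-ratios and quantile, 1 passed, Abcb1a, a drug and steroid exporter, lower in prednisone than control. Cyp11b1, which makes corticosterone, was listed at 0 in all control, model and SMD libraries.

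**Figure D2:**
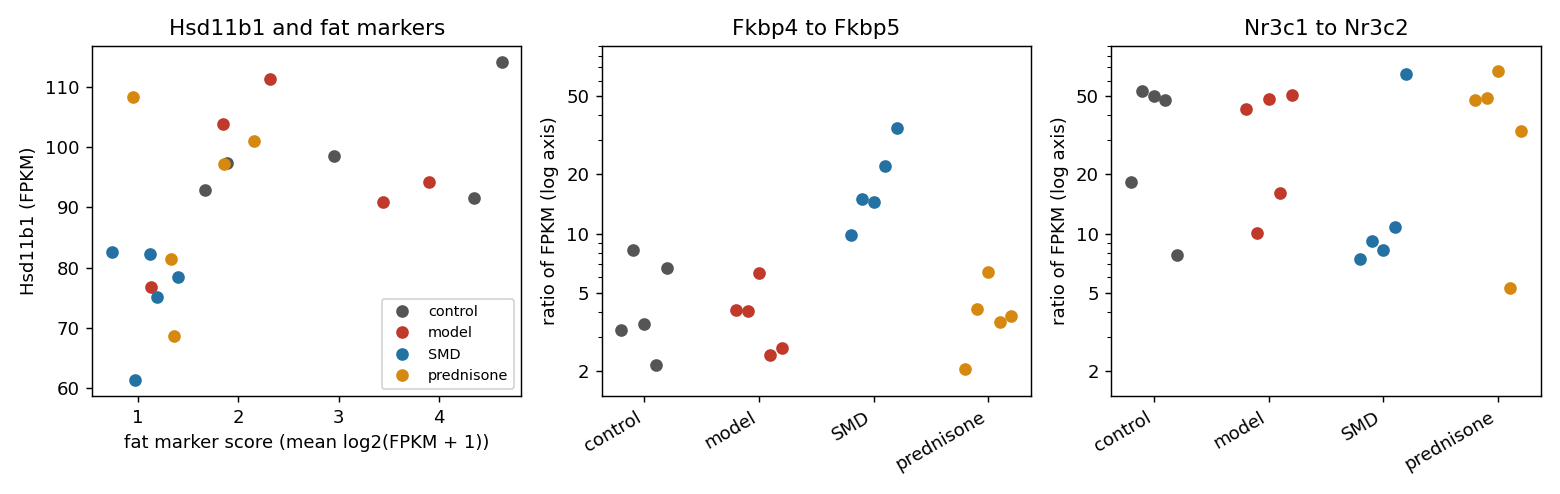
Left, Hsd11b1 in FPKM against the fat marker score in each library; middle and right, ratios of FPKM on log axes, Fkbp4 to Fkbp5 and Nr3c1 to Nr3c2, by group with 1 point per library. SMD libraries lie at the low end of both axes on the left, and hold Fkbp4 to Fkbp5 ratios from 9.87 to 34.4, above the 8.27 reached in any other group.

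Fkbp4 and Ptges3 are shown with their promoter windows, since their levels ran close to those of stress-inducible chaperones, whose promoters commonly hold inverted GAA units bound by heat shock factor. The windows run from 250 bases before to 50 after the RefSeq start site in GRCm38.p6, and the table used gave windows for 4 of the 5 genes. That of Nr3c2 is printed for contrast. Capitals mark a pair of heat shock units, GAANNTTC, which reads the same on both strands.
Fkbp4, chr6:128438607-128438906, minus strand: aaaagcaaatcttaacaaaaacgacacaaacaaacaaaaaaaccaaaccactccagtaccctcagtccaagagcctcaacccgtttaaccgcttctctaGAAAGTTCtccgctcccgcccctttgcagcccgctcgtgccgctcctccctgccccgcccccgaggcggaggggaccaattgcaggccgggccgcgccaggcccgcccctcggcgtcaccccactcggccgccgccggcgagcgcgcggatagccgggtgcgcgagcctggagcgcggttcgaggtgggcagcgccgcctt
Ptges3, chr10:128058732-128059031, plus strand: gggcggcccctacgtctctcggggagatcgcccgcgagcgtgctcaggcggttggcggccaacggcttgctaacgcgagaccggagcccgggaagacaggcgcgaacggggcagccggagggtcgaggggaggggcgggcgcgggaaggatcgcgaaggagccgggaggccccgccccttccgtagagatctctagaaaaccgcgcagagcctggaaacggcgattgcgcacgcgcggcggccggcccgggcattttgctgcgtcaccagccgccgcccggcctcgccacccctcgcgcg
Nr3c2, chr8:76902080-76902379, plus strand: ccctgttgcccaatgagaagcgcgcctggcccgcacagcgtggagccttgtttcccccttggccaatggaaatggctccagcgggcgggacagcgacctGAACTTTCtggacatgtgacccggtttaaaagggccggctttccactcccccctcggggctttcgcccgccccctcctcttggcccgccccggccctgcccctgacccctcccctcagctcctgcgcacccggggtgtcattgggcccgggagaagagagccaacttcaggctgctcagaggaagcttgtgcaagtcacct

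Fkbp4 and Nr3c2 each held 1 such pair, at bases -151 to -144 from the start site, as did 7.86% of 32851 promoter windows. The windows of Ptges3 and Hsd11b1 held no such pair, and the pair with a further GAA after any 2 bases, in 0.603% of all windows, was in 0 of the 4. The full glucocorticoid response element, AGAACA and TGTTCT separated by any 3 bases, was in 0 of the 4 windows and in 3 of all windows (0.00913%). Its unit AGAACA alone, in 18.97% of windows on either strand, was also in none of the 4. GC content was 65.3% for Fkbp4, 73.7% for Ptges3, 65.7% for Nr3c2 and 54.7% for Hsd11b1. These matches describe letters, not bound sites. The windows of Hsd11b1 (chr1:193242311-193242610) and Nr3c2 lie inside the annotated genes, away from their outermost start. Which start sites these lungs used was not tested, so a motif may be absent here and present at another start.

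Fkbp4, identifier ENSMUSG00000030357, on the minus strand of chromosome 6 from 128429735 to 128438677, was lowest in control and SMD. Control replicates 1 to 5 held 61.4, 51.5, 52.1, 59.8 and 55.2 FPKM. SMD replicates held 62.2, 50.3, 46.8, 63.5 and 57.0 FPKM. These groups overlapped, and SMD reached beyond control at both ends, with SMD replicate 3 the lowest of the 20 libraries. Model replicates held 63.4, 65.0, 74.6, 56.3 and 79.8 FPKM, and prednisone replicates 77.9, 58.2, 66.3, 74.1 and 74.8 FPKM. In each of these groups 4 of 5 libraries exceeded every control library, and 1 (model replicate 4, prednisone replicate 2) lay among them.

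The Fkbp4 means stood at 70.3 ± 7.97 FPKM in prednisone (SD, n = 5), 67.8 ± 9.34 in model, 56.0 ± 4.44 in control and 56.0 ± 7.29 in SMD. The first pair and the last pair lay within their SD. Prednisone with control gave a log2 fold change of 0.32 ± 0.102 (SE; 95% interval 0.10 to 0.53; limma, adjusted p = 0.0867). For SMD with prednisone it was -0.32 (95% interval -0.54 to -0.11; limma, adjusted p = 0.0785), for model with control 0.26 (adjusted p = 0.224) and for SMD with model -0.27 (adjusted p = 0.155). SMD with control was at -0.01 (limma, adjusted p = 0.987; 95% interval -0.22 to 0.21). Quantile normalization brought 2 of these past the threshold, prednisone with control at 0.39 (limma, adjusted p = 0.0147) and SMD with prednisone at -0.36 (adjusted p = 0.0152). Without prednisone replicate 2, SMD with prednisone also passed, at -0.39 (limma, adjusted p = 0.0412).

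Ptges3, identifier ENSMUSG00000071072, on the plus strand of chromosome 10 from 128058954 to 128077272, encodes the co-chaperone p23, which also acts as a prostaglandin E synthase. Control replicates 1 to 5 held 47.9, 49.3, 52.8, 53.5 and 50.7 FPKM, and prednisone replicates 65.1, 54.4, 59.0, 59.0 and 61.8 FPKM. Each prednisone library lay above every control library, though prednisone replicate 2 did so narrowly. SMD replicates held 53.8, 53.5, 47.7, 48.5 and 48.3 FPKM, all below the prednisone libraries. Ptges3 was thus the 1 gene of the 5 wholly lower in SMD with prednisone (3.34% of all genes tested) and wholly higher in prednisone with control (2.44%). Model replicates held 49.4, 60.5, 54.0, 50.3 and 70.4 FPKM, and overlapped all other groups.

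In mean level Ptges3 stood at 59.9 ± 3.95 FPKM in prednisone (SD, n = 5), 56.9 ± 8.70 in model, 50.8 ± 2.35 in control and 50.4 ± 3.02 in SMD, and neighbours in that order lay within their larger SD. The log2 fold change was -0.24 ± 0.0785 (SE; 95% interval -0.41 to -0.08) for SMD with prednisone (limma, adjusted p = 0.0833). For prednisone with control it was 0.23 (95% interval 0.07 to 0.39; limma, adjusted p = 0.104). Model with control gave 0.15 (limma, adjusted p = 0.365), SMD with model -0.16 (adjusted p = 0.270) and SMD with control -0.01 (adjusted p = 0.963). Model replicate 5, the highest library, widened the shared spread: without it, SMD with prednisone passed at an adjusted p of 0.0283 and prednisone with control at 0.0446 (limma). Under quantile normalization both passed as well, at -0.27 (limma, adjusted p = 0.0413) and 0.31 (adjusted p = 0.0288).

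Reads of Ptges3 can be shared with its processed pseudogene Ptges3-ps on chromosome 6 from 85843980 to 85844459, which matched it at 100% over 480 bases. Ptges3-ps was listed at 19.4 to 38.4 FPKM over its 480 bases. The exons of Ptges3 cover 2217 bases, so the same reads would add fewer FPKM to Ptges3. How reads that match both genes were counted is not stated, so the size of the uncertainty in the level of Ptges3 is unknown. A second copy, Gm11893, matched at 94.3% over 495 bases and reached at most 0.181 FPKM. With Ptges3 and Ptges3-ps summed per length, a choice made after seeing the data, the log2 fold change was -0.25 for SMD with prednisone (limma, adjusted p = 0.0582) and 0.23 for prednisone with control (adjusted p = 0.0829). No other gene matched transcripts of the remaining 4. Hsd11b1 is crossed on the other strand by Lamb3, a laminin chain, at 0.735 to 8.09 FPKM, and the notes used here do not say whether counting used strand.

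**Figure D3:**
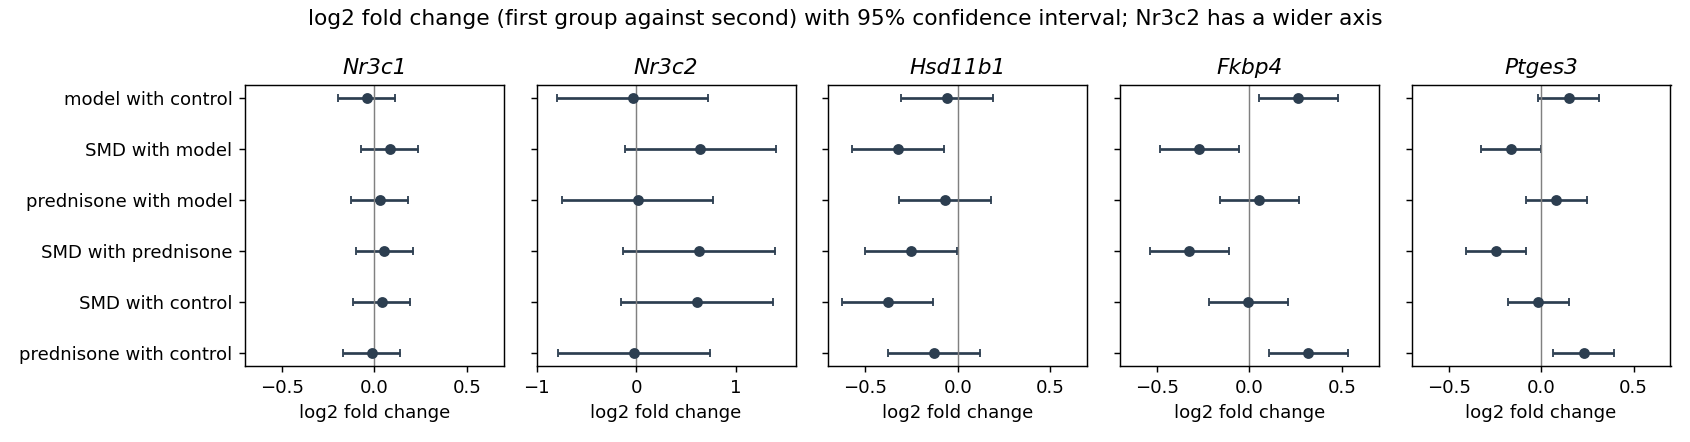
log2 fold change (horizontal axes) of each gene in the 6 comparisons, first group against second, with 95% confidence intervals from limma; Nr3c2 has a wider axis. Nr3c1 intervals all hold 0 and stay within -0.20 to 0.24, while those of Hsd11b1 in the 3 SMD comparisons, of Fkbp4 in 4 comparisons and of Ptges3 in SMD with prednisone and prednisone with control lie to one side of 0, all without passing adjustment.

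Fkbp4 was high and low in the same libraries as the HSP90 machinery. Over the 20 libraries, log2 levels of Fkbp4 had a Pearson r of 0.91 with Hsp90aa1, the inducible cytosolic HSP90, and of 0.90 with Hsp90ab1, the constitutive one. With group means removed these were 0.94 for each. Ptges3 was looser, with an r of 0.74 with Hsp90aa1 and 0.63 with Hsp90ab1 (0.55 and 0.42 without group means). The receptor itself did not share this pattern, with an r of 0.02 between Nr3c1 and Hsp90aa1 and of -0.08 between Nr3c1 and Fkbp4. Fkbp4 and Ptges3 had an r of 0.75 with each other, and 0.53 without group means. All these coefficients compare genes measured in the same libraries, so both genes share the depth and handling of each library. No test was made of them.

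**Figure D4:**
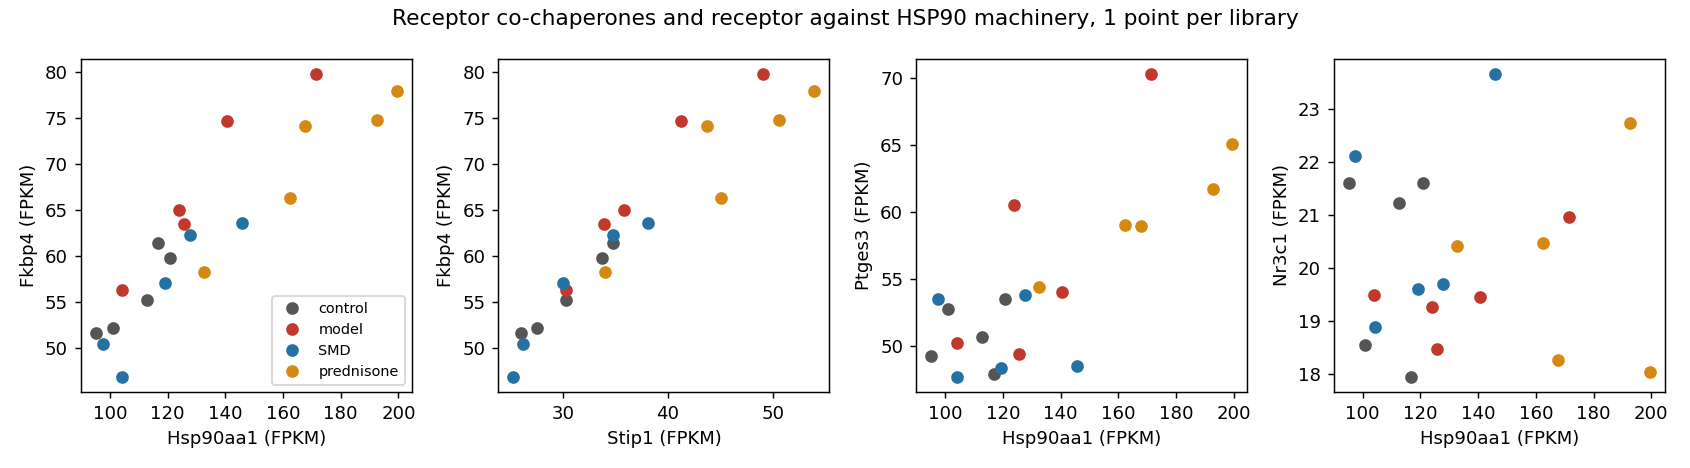
FPKM of Fkbp4 against Hsp90aa1 and against Stip1, and of Ptges3 and Nr3c1 against Hsp90aa1, with 1 point per library coloured by group; axes do not start at 0. Fkbp4 follows a narrow rising band with Hsp90aa1 (r of log2 levels 0.91) and Stip1 (0.96) that runs through all 4 groups, and Nr3c1 shows none (0.02).

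Among 12760 protein-coding genes tested, the 5 most like Fkbp4 over the 20 libraries were Stip1 (r 0.96), Hspd1 (0.96), Bag3 (0.93), Ahsa1 (0.92) and Cacybp (0.92). Stip1 carries clients from HSP70 to HSP90, Ahsa1 activates the HSP90 ATPase, Hspd1 is the mitochondrial chaperonin and Bag3 a partner of HSP70. Those most like Ptges3 were Chordc1 (0.83), Cacybp (0.81), Hspa1a (0.79), Sfn (0.78) and Hspa1b (0.78), of which Hspa1a and Hspa1b are stress-inducible HSP70 genes that resemble each other closely enough for reads to be shared.

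The genes most like Hsd11b1 were Ackr2 (0.88), a scavenging chemokine receptor, Lepr (0.88), the leptin receptor, Ogn (0.87), an extracellular proteoglycan, Marveld1 (0.87) and A4galt (0.87). For Nr3c1 they were Golim4 (0.83), Cltc (0.82), the clathrin heavy chain, Sh3tc1 (0.79), Fbxo3 (0.78) and Trappc11 (0.78). Among those most like Nr3c2 were Sidt1 (0.75), Cacfd1 (0.74), Usp43 (0.72) and Zc3h6 (0.71). With group means removed, r lay from 0.88 to 0.96 for the 5 genes like Fkbp4, from 0.60 to 0.67 for Ptges3 and from 0.76 to 0.88 for Hsd11b1. It lay from 0.79 to 0.84 for Nr3c1 and from 0.65 to 0.73 for those named for Nr3c2. Each set holds the highest of many coefficients and is given as a description.

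The machinery around Fkbp4 and Ptges3 was described with 20 further genes of the HSP90 and HSP70 cycle, all of which could be tested. In SMD with prednisone 7 fell and 1 rose, with a list median log2 fold change of -0.15 (all genes -0.004). Of all genes tested, 2.42% fell and 2.16% rose there. The largest falls were Fkbp5 (-2.21; limma, adjusted p = 0.00246), Dnajb1 (-1.10; adjusted p = 0.000905), Dnaja1 (-1.07; adjusted p = 0.000559) and Hspa8 (-0.78; adjusted p = 0.00765). Dnajb1 and Dnaja1 are HSP40 partners of HSP70, and Hspa8 is the constitutive HSP70. Hsp90aa1 fell as well, from 171 ± 26.7 FPKM in prednisone to 119 ± 19.2 in SMD (SD, n = 5 each; log2 fold change -0.52; limma, adjusted p = 0.0284). The count was 4 in place of 7 without SMD replicate 2, SMD replicate 3, prednisone replicate 1 or prednisone replicate 5. Hsp90aa1 itself missed the threshold without SMD replicates 2, 3 or 5 or prednisone replicates 1, 4 or 5, each left out in turn, with adjusted p up to 0.0769, with no filter (0.0757) and when only these groups were fitted (0.0573). The gene that rose was Stub1, a ubiquitin ligase of the HSP70 and HSP90 complexes (0.20; limma, adjusted p = 0.0448), and this call was lost under both other scalings and kept in 4 of 20 fits that left out 1 library.

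In prednisone with control 4 of the 20 rose and 0 fell, with a median of 0.13 (all genes -0.004), where 1.78% of all genes rose. They were Dnajb1 (1.03; limma, adjusted p = 0.00286), Dnaja1 (0.76; adjusted p = 0.00827), Hsp90aa1 (0.63; adjusted p = 0.0127) and Stip1 (0.55; adjusted p = 0.0341). Hsp90aa1 stood at 109 ± 10.9 FPKM in control (SD, n = 5). Stip1 lost its call without control replicates 2, 3 or 5 or prednisone replicates 1, 3 or 5, each in turn, with adjusted p up to 0.0793, and also once the fat score entered the fit (0.0686; log2 fold change 0.68) or the filter was dropped (0.084). Hsp90ab1, at 302 ± 27.6 FPKM in control and 397 ± 55.7 in prednisone, gave 0.39 (limma, adjusted p = 0.0976).

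For model with control 0 of the 20 were called, and 20 of 20 lay above 0, as did 9957 of all 15106 genes, with a median log2 fold change of 0.14 against 0.05 for all genes. Median-of-ratios scaling left 18 positive with a median of 0.08, and quantile normalization 19 with 0.08. For SMD with model 2 fell, Fkbp5 (-2.19; limma, adjusted p = 0.00651) and Dnaja1 (-0.76; adjusted p = 0.0170), where 1.91% of all genes fell. The count was 1 without model replicate 5 or SMD replicate 2, and Dnaja1 was the gene lost (adjusted p up to 0.0521). With the fat score as a covariate, a fit that called 15 of all genes here in place of 325, Fkbp5 was at -1.87 (limma, adjusted p = 0.102) and Dnaja1 at -0.57 (adjusted p = 0.162), and neither was called. In prednisone with model 1 fell, Stub1 (-0.29; limma, adjusted p = 0.00713), whose call ended under both other scalings (adjusted p up to 0.121). Of all genes, 7.13% fell and 0.914% rose there. With median-of-ratios scaling Dnajb1 rose in its place, and with quantile normalization Dnajb1, Hsp90aa1 and Ahsa1 did. In SMD with control the 1 gene called was Fkbp5 (-1.76; limma, adjusted p = 0.0336), where 0.761% of all genes fell, and which missed the threshold in 7 of the 20 fits that left out 1 library, with adjusted p up to 0.0981, and also once the fat score entered the fit (0.602; log2 fold change -1.30).

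**Figure D5:**
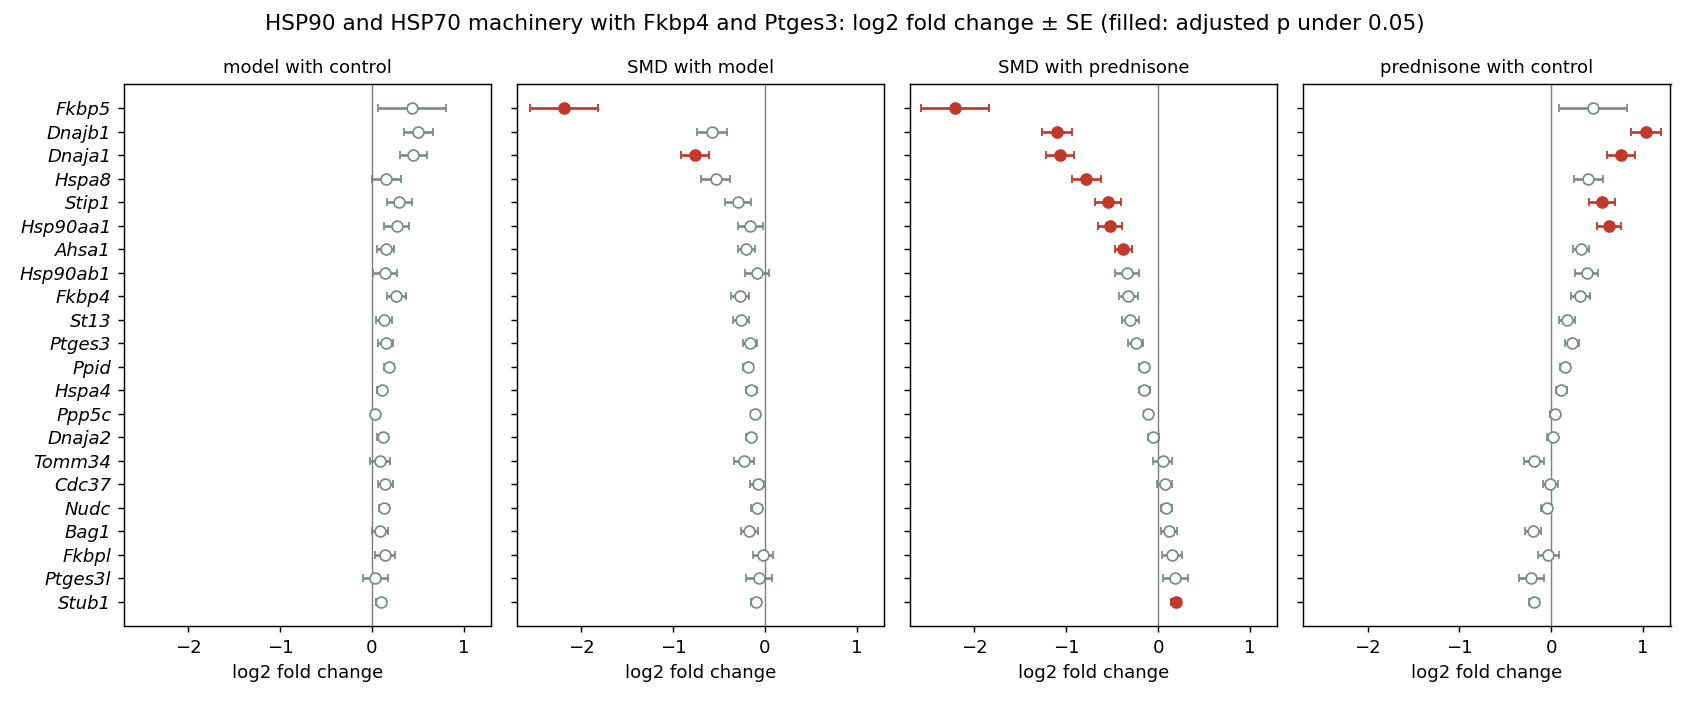
log2 fold change with SE (horizontal axes) of 20 HSP90 and HSP70 cycle genes together with Fkbp4 and Ptges3, in 4 comparisons; filled red points passed limma at an adjusted p under 0.05 and open grey points did not. In SMD with prednisone 7 filled points lie to the left, led by Fkbp5 at -2.21, and in prednisone with control 4 lie to the right, with Fkbp4 (0.32) and Ptges3 (0.23) open beside them.

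Fkbp4 and Fkbp5 compete for the same place on HSP90, and the ratio of their transcripts was highest in the SMD libraries. Fkbp5 stood at 15.2 ± 8.61 FPKM in control (SD, n = 5), 19.4 ± 7.44 in model, 3.49 ± 1.71 in SMD and 20.6 ± 10.6 in prednisone. The ratio of Fkbp4 to Fkbp5 in SMD replicates 1 to 5 was 9.87, 15.0, 14.5, 22.0 and 34.4. Every one of these exceeded the highest ratio elsewhere, 8.27 in control replicate 2. Means were 4.76 ± 2.58 in control, 3.90 ± 1.57 in model, 19.2 ± 9.55 in SMD and 3.99 ± 1.56 in prednisone (SD, n = 5 each). The ratio was not tested, and how many other pairs of genes separate the groups in this way was not counted. Fkbp5 itself overlapped between SMD and control, at 6.30 FPKM in SMD replicate 1 and 6.23 in control replicate 2. Its call in SMD with control held in 13 of the 20 fits that left out 1 library. The mean of Fkbp4 was 56.0 FPKM in both SMD and control.

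Beyond the chaperones, few genes that carry the receptor to the nucleus passed the test. Of 17 tested, Ipo7, an import receptor, fell in SMD with prednisone by 0.28 on the log2 scale (limma, adjusted p = 0.00601) and was called in all 20 fits that left out 1 library. In prednisone with control it was 0.20 higher (limma, adjusted p = 0.0425), a call kept in 11 of the 20. Ran (-0.22; limma, adjusted p = 0.0473) and Dctn2 (-0.19; adjusted p = 0.0253) fell in prednisone with model, with calls kept in 7 and 17 of the 20, and lost under both other scalings, of which quantile normalization called Ipo7 higher there. Ipo13, an importin, fell in SMD with model (-0.40; limma, adjusted p = 0.04997), kept in 5 of the 20 and lost under both other scalings. In model with control and in SMD with control 0 of the 17 were called. These counts of 1 or 2 of 17 stand beside 4.59% of all genes called in SMD with prednisone, 8.04% in prednisone with model, 3.57% in prednisone with control and 2.15% in SMD with model, and are near that background.

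Of 17 coregulators, 2 were called in prednisone with model (8.04% of all genes were), 1 in SMD with prednisone (4.59%) and 0 in the other 4 comparisons, which is near the background. Ncoa1, the steroid receptor coactivator SRC-1, rose in prednisone with model (0.51; limma, adjusted p = 0.0472), kept in 7 of the 20 fits that left out 1 library and lost with quantile normalization. Hdac2, a histone deacetylase recruited by the receptor, fell there by 0.18 (limma, adjusted p = 0.0332), kept in 14 and lost under both other scalings. Med1, a Mediator subunit that contacts nuclear receptors, fell in SMD with prednisone by 0.23 (limma, adjusted p = 0.0238), kept in 15. With median-of-ratios scaling Med1 was also higher in prednisone with model.

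The mineralocorticoid receptor is best known for driving sodium uptake, and 7 genes of sodium transport were described. In SMD with prednisone, where 2.42% of all genes fell, 3 of 7 fell: Nedd4l (-1.27; limma, adjusted p = 0.0435), the ligase that removes the sodium channel, Sgk1 (-0.46; adjusted p = 0.0193), the kinase that restrains that ligase, and Atp1b1 (-0.40; adjusted p = 0.0171), a sodium pump subunit. Sgk1 and Atp1b1 kept their calls in all 20 fits that left out 1 library, and Nedd4l in 9. The channel subunits Scnn1a, Scnn1b and Scnn1g were not called in any comparison. In prednisone with control Sgk1, which the glucocorticoid receptor also induces, was 0.40 higher (limma, adjusted p = 0.0483; 1 of 7, where 1.78% of all genes rose), kept in 5 of the 20. In the remaining 4 comparisons 0 of 7 were called.

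Beside the receptor values stand those of 6 known target genes of the glucocorticoid receptor: Fkbp5, Tsc22d3, Zbtb16, Klf9, Per1 and Sgk1. Fkbp5 is also in the chaperone list above and Sgk1 in that of sodium transport, so their calls are counted in both places. In SMD with prednisone 6 of 6 fell (2.42% of all genes did), with a median of -1.13 (all genes -0.004), among them Zbtb16 by 3.10 (limma, adjusted p = 0.000184) and Tsc22d3 by 1.38 (adjusted p = 0.00314). In SMD with model 5 fell (1.91% of all genes did), with a median of -0.90 (all genes -0.06). Of these, 3 passed with median-of-ratios scaling (Fkbp5, Zbtb16 and Tsc22d3) and 2 with quantile normalization (Fkbp5 and Zbtb16). In SMD with control 4 fell (0.761% of all genes did), with a median of -0.95, of which Tsc22d3 was called in 9 of the 20 fits that left out 1 library. With the fat score in the fit, 0 of these 5 and 0 of these 4 calls held (limma, adjusted p from 0.0535 to 0.178 and from 0.239 to 0.632), where 15 and 0 of all genes were called. The log2 fold change of Zbtb16 was then -2.14 in SMD with model (-2.49 without the score) and -2.42 in SMD with control (-2.91). In prednisone with model 0 were called and the median was 0.16. These targets were chosen with their values known, so the counts are no independent support. Over the same comparisons the log2 fold change of Nr3c1 was 0.05, 0.08, 0.04 and 0.03, with intervals that held 0 in each.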

How the data were processed

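Lung RNA libraries were prepared with a NEBNext Ultra kit and sequenced as read pairs, per the labels' protocols. The authors deposited FPKM values per Ensembl gene for all 20 libraries. A reference table of gene names gave symbols to 54409 of 54532 identifiers. The submitters' processing notes name fastp, HISAT2, featureCounts, DESeq2 and build GRCm38, with no versions; which of them made the FPKM values is not stated. Group and number came from the treatment labels, except that prednisone replicate 5, whose treatment label repeats number 1, was numbered by its title.

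From these values, log2(FPKM + 1) went into 1 linear model over 20 libraries (limma 3.58.1, trended eBayes; R 4.3.3) with 16 residual degrees of freedom, two-sided, with Benjamini-Hochberg adjustment within each comparison. The median SE of a log2 fold change was 0.105, taken from the spread between libraries. Read depth is unknown and did not enter the fit. The script was tested on simulated data. Gene positions come from GENCODE vM21 (GRCm38) and promoter windows from RefSeq (GRCm38.p6).

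The 5 genes, the lists and the tests were chosen with earlier results of these data known. Named beyond the 5 are Hsd11b2, H6pd, Hsp90aa1, Hsp90ab1 and Fkbp5, up to 4 called genes per list and comparison with the largest change, the 5 genes most correlated with each of the 5, and genes named to complete a count, chosen after their values were seen; 1 gene that this rule names is not reported here. Alternatives were median-of-ratios scaling, quantile normalization, a pseudocount of 0.1, no filter, a filter on mean FPKM, fitting only the groups compared, a replicate block, the fat score as a covariate, robust moderation and leaving out each library, and, added after seeing the data, Ptges3 summed with its pseudogene. The replicate numbers were checked for pairing and treated as plain numbers.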

Additional observations from a re-analysis of the deposited data

Results flagged for a closer look

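Among the 5 genes and 4 groups, 3 of the 20 sets of 5 libraries held a library far from the rest by Dixon's test at the 95% level. For normally distributed values chance flags about 1 set in 20. The test was run on FPKM, not log2 levels, and that rate need not hold for a low and uneven gene. The share of all genes flagged in this way was not counted. All were of Nr3c2. Control replicate 5 stood at 2.735 FPKM, where the nearest other control library was at 0.9743 FPKM. SMD replicate 5 stood at 0.3011 FPKM, below 2.185 FPKM in the nearest SMD library. Prednisone replicate 4 stood at 3.452 FPKM, above 0.686 FPKM in the nearest prednisone library. The same libraries were not set apart in this way for the other 4 genes. No cause was tested.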

How the results depend on the processing

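Of the values of the 5 genes over all settings, 851 kept their direction and their side of the threshold, 42 changed sign and 7 passed it newly. Many of the 851 could not change sign. Dropping a library outside the comparison, changing the filter, robust moderation, the replicate block and fitting only the groups compared leave a fold change as it is. Summing Ptges3 with its pseudogene changes the fold change of Ptges3 alone. The count of 851 is thus no measure of how stable the directions are. Quantile normalization gave 2 calls among the 5 (Fkbp4 and Ptges3) in each of SMD with prednisone and prednisone with control, and 0.0308 for Fkbp4 and 0.0396 for Ptges3 in SMD with control, 0.0844 for Hsd11b1 and -0.0307 for Nr3c2 in prednisone with model, and 0.0191 for Nr3c1 in prednisone with control. The fat covariate gave 0.123 for Fkbp4, 0.0168 for Ptges3 and -0.0049 for Nr3c1 in SMD with control, and for Nr3c2 0.0347 in model with control and 0.1734 in prednisone with control. A pseudocount of 0.1 gave -0.0732 for Nr3c2 in prednisone with model. The sign changes are of values near 0 whose intervals held 0, and the cause was not tested.

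Of the 20 chaperone genes, 7 were higher in prednisone with control under quantile normalization. In SMD with model 1 was lower when only the groups compared were fitted and 0 with the fat covariate, and in SMD with prednisone 4 were lower with no filter and 4 with only the groups compared. Leaving out 1 library at a time gave 0 to 1 calls among the 5 genes in both SMD with prednisone (1 without model replicate 5 or prednisone replicate 2) and prednisone with control (1 without model replicate 5), and 1 to 3 and 4 to 8 lower chaperone genes in SMD with model and SMD with prednisone. With 1 library left out, model with control ran from -0.1156 to 0.017 for Hsd11b1 and from -0.2122 to 0.2201 for Nr3c2. SMD with control ran from -0.0539 to 0.0543 for Fkbp4, from -0.0056 to 0.0721 for Nr3c1 and from -0.0381 to 0.0047 for Ptges3. Prednisone with model ran from -0.0101 to 0.118 for Fkbp4, -0.1445 to 0.0277 for Hsd11b1, -0.0175 to 0.062 for Nr3c1 and -0.312 to 0.1893 for Nr3c2. Prednisone with control ran from -0.0595 to 0.02 for Nr3c1 and -0.3488 to 0.2339 for Nr3c2.

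Same-numbered libraries had correlations of -0.18 to 0.237 (median -0.004), over 0.1 in 6 of 30 pairs. Differently numbered libraries of different groups had -0.277 to 0.251 (median 0.004), over 0.1 in 20 of 120 pairs. By this measure no pairing was seen, and it was not tested. With a replicate block 0 of the 5 genes were called in each comparison, 7 calls of other named genes narrowly missed the threshold (adjusted p 0.0574 to 0.0824: Ipo13 in SMD with model, Ran and Ncoa1 in prednisone with model, Stub1 and Nedd4l in SMD with prednisone, Ipo7 and Sgk1 in prednisone with control), and over all genes the block gave 0 calls in place of 29 for model with control, 423 for 540 in prednisone with control, 171 for 159 in SMD with control, 1074 for 1215 in prednisone with model, 323 for 325 in SMD with model and 650 for 693 in SMD with prednisone. In that order of comparisons, median-of-ratios scaling gave 0, 727, 199, 501, 122 and 893 calls and quantile normalization 0, 685, 213, 325, 92 and 926. With no filter there were 2, 259, 35, 748, 122 and 453, with only the groups compared 0, 256, 166, 710, 53 and 495, and with the fat covariate 0, 85, 0, 446, 15 and 595. Higher and lower calls split 138 to 1077 in prednisone with model, but 202 to 299 with median-of-ratios scaling and 153 to 172 with quantile normalization. In SMD with model they split 37 to 288, but 59 to 63 and 43 to 49. The unknown read depth limits what can be said of low genes such as Nr3c2.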
